A study of Hevea brasiliensis with 21 samples.

Results

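Latex of 3 rubber trees (Hevea brasiliensis, clone PB 260) with severe Tapping Panel Dryness (TPD) under ethephon treatment was compared with latex of 3 untreated trees, contig by contig. Latex is the cell content that flows from laticifers, the bark vessels that make it, and TPD is a disorder in which part or all of the tapping cut stops yielding latex. A contig entered the comparison when it reached at least 1 CPM (read pairs scaled to a common library size) in at least 3 of the 6 libraries. Of the 86941 contigs of the reference transcriptome, 29900 met this rule (34.4%), and 21256 had no read pair in any of the 6 libraries.

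All 6 trees were 9 years old and had been tapped every 2 days for 36 months on a half-spiral cut. The severe TPD trees had received 2.5% ethephon 12 times per year and showed a dry cut length above 75%. The control trees had received no ethephon and showed a dry cut length below 25%, a class that the study calls slight TPD although the labels call these samples healthy. Each library came from 1 tree, so the replicates are separate trees of 1 clone. Latex was collected on 27 March from the severe TPD trees and on 25 March from the control trees, so dryness, ethephon and harvest day cannot be told apart here. The same study sequenced 3 further PB 260 trees with slight TPD under ethephon, collected on 27 March, and trees of a second clone, PB217.

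Ethephon releases ethylene in the bark and is applied to stimulate latex flow. Ethylene and jasmonate are plant hormones that act on gene expression in laticifers, and jasmonate is made from membrane lipids by a chain of plastid enzymes before its last steps in the peroxisome. Natural rubber and sterols share the mevalonate pathway as a source of isoprene units. Latex is expelled at each tapping and its content is made again between tappings.

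Depth was similar in both groups, with 18884906 to 22179786 read pairs counted per severe TPD library and 18640236 to 22785723 per control library. Between 27582 and 29794 contigs reached 1 CPM in the severe TPD libraries, against 29073 to 30865 in the control libraries. Severe TPD library 2 stood somewhat apart. It lay more than 4-fold below both other severe TPD libraries for 121 of the contigs tested, against 0 to 12 contigs for each of the other 5 libraries, and none of those 121 was among the contigs called. HbTCTP1, a translationally controlled tumour protein abundant in laticifers, was high in all 6 libraries. Its contig CL1Contig7138 stood at 3104, 1895 and 2763 CPM in the severe TPD libraries, against 2335, 2982 and 2144 CPM in the control libraries (log2 fold change 0.06 ± 0.26 SE, adjusted p = 0.908 in edgeR). Its second contig, CL1Contig21026, stood at 3.31 to 6.56 CPM in the severe TPD libraries, against 1.78 to 14.8 CPM in the control libraries. The major latex allergen Hev b 4, CL10238Contig1, had 1.01, 2.58 and 7.03 CPM in the severe TPD libraries, against 26.2, 5.73 and 3.07 CPM in the control libraries (log2 fold change -1.73 ± 0.82 SE, adjusted p = 0.199), and the second contig of that cluster, CL10238Contig2, had 8.67 to 27.2 CPM against 4.63 to 38.5 CPM. The 5 contigs named for photosystem parts, which mark green bark cells, summed to 1.01 to 1.68 CPM in severe TPD latex, against 1.14 to 3.12 CPM in control latex. The 51 contigs matching powdery mildew fungi summed to 0.158 to 0.440 CPM, against 0.0877 to 2.15 CPM, with 48 of the 51 at 0 pairs in all 6 libraries.

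At an adjusted p below 0.05 in the edgeR quasi-likelihood test, 1972 contigs were higher and 1467 lower in severe TPD latex than in control latex. These calls were 6.60% and 4.91% of the contigs tested, together 11.5%. Of the same contigs, the edgeR exact test called 8.75% higher and 7.09% lower, and DESeq2 called 8.85% and 7.93%. The change exceeded 2-fold in 1530 of the higher contigs and in 1196 of the lower ones, and 4-fold in 419 and 263. The median log2 fold change was 1.30 among the higher contigs and -1.44 among the lower ones, against 0.006 over all contigs tested. In bulk latex, fewer cells of a type and less RNA per cell cannot be told apart.

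The contigs called higher summed to 123294, 135821 and 119182 CPM in the severe TPD libraries, against 57872, 53943 and 41590 CPM in the control libraries. The contigs called lower summed to 33023, 33654 and 37600 CPM in severe TPD latex, against 75442, 86659 and 95475 CPM in control latex. Neither sum overlapped between the groups, and control library 3 had the lowest sum of the first set and the highest of the second. These sums describe contigs chosen by the same test and are given with no test of their own.

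**Figure D1:**
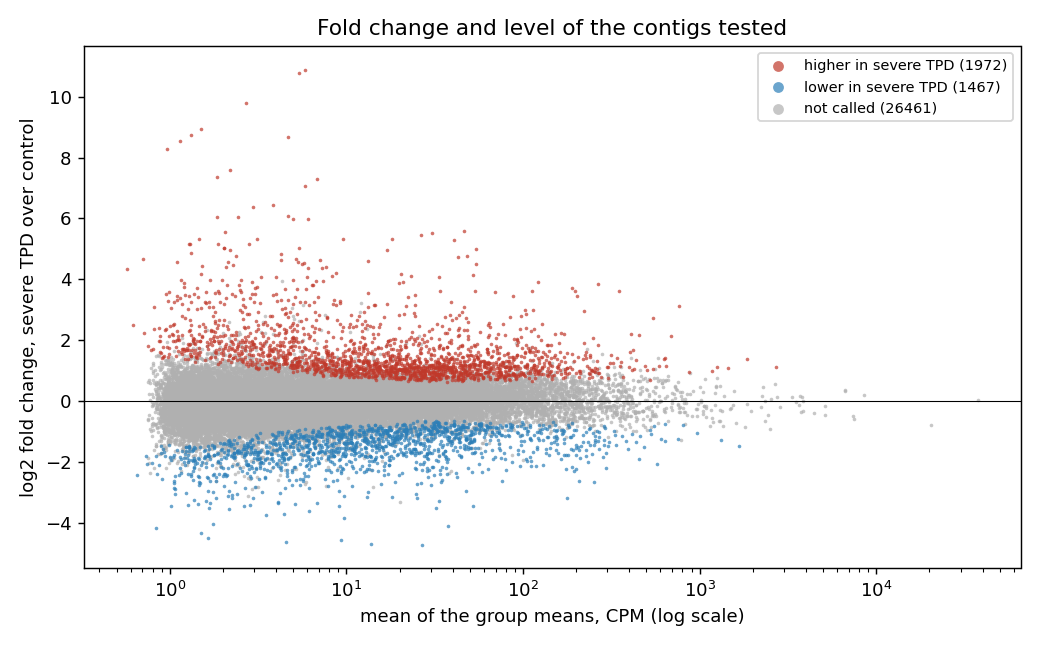
Log2 fold change of severe TPD over control (y axis) against the mean of both group means in CPM (x axis, log scale), 1 point per contig tested. Red points are the 1972 contigs higher and blue points the 1467 lower in severe TPD latex, and grey points were not called.

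With the contigs split by level into 4 equal groups, calls made up 6.4% of the group with the lowest levels (0.571 to 2.76 CPM) and 18.6% of that with the highest (above 22.5 CPM), where counts are larger. Of the 100 contigs with the highest CPM, 6 were higher and 4 lower. That share of 10% stands beside 11.5% of all contigs and 18.6% of the group with the highest levels, and the difference was not tested. At the entry threshold, the 1535 contigs that reached 1 CPM in exactly 3 libraries had median levels of 1.01 CPM in severe TPD latex and 1.07 CPM in control latex. The 1574 contigs that reached it in exactly 2 libraries and stayed out had 0.808 and 0.909 CPM in the same groups.

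All severe TPD libraries lay above all control libraries for 19.4% of the contigs tested and below them for 16.6%, and the same held for 3429 of the 3439 called. Some contigs passed the rule only through the libraries of the group in which they were high. These were 306 contigs present in severe TPD latex, 224 of them called higher, and 279 present in control latex, 135 of them called lower. The counts changed when single trees were left out. Without severe TPD library 1 there were 1128 higher and 886 lower, without severe TPD library 3 there were 778 and 581, without control library 2 there were 560 and 445, and without control library 3 there were 629 and 441. Without severe TPD library 2 there were 1515 and 1612, and without control library 1 there were 1327 and 1120. Each such fit also had 1 tree fewer, which cannot be told apart from the effect of the tree itself. In all 6 such fits, 370 contigs stayed higher and 327 stayed lower.

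The enzymes of jasmonate synthesis were among the contigs with higher levels in severe TPD latex. Their names come from the set of contigs that the study had selected as over-expressed with ethephon, on libraries that include these control trees. The direction of that set is therefore not independent evidence, and its counts are given as a description. Of its 173 contigs whose names were used here, 100 were tested and 100 were called higher, beside 6.60% of all contigs tested. Their median log2 fold change was 3.94, also with the 4 contigs that had no control pair set at their lower bound, and the contigs with a control pair ranged from 2.16 to 7.35. Of the 100, 54 entered the test only through the severe TPD libraries, where they were high, and so had to differ. Together they summed to 5020, 4178 and 3867 CPM in the severe TPD libraries, against 413.2, 327.8 and 177.4 CPM in the control libraries. Control library 3 was the lowest control for 56 of the 100, and severe TPD library 1 the highest of its group for 66.

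Phospholipase A1-Ibeta2 (CL1Contig21396), a plastid enzyme that frees fatty acids from membrane lipids, stood at 404, 289 and 364 CPM in the severe TPD libraries, against 43.4, 30.8 and 6.64 CPM in the control libraries. The lowest severe TPD library was well above the highest control library, and the log2 fold change was 3.71 ± 0.56 SE (adjusted p = 0.00505). Lipoxygenase 6 (CL1554Contig7), of the family that oxidizes linolenic acid, had 54.7, 28.8 and 33.8 CPM against 3.37, 3.17 and 1.32 CPM in the control (3.90 ± 0.40, adjusted p = 0.00138). Allene oxide synthase, which turns the oxidized fatty acid into an unstable epoxide, was represented by 2 of the 4 contigs tested on the jasmonate list, all 4 of which were called. CL1Contig911 had 139, 43.8 and 55.1 CPM in severe TPD latex, against 4.03, 1.17 and 0.829 CPM in control latex (5.28 ± 0.66, adjusted p = 0.00256). CL1Contig709 had fewer read pairs, at 6.83, 3.36 and 3.00 CPM against 0.263, 0.111 and 0.195 CPM in the control (4.46 ± 0.52, adjusted p = 0.00202), and it entered the test only through the severe TPD libraries.

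Allene oxide cyclase 3 (CL10285Contig1), the enzyme that follows in the chain, was outside the selected set. It had 5.20, 11.8 and 12.9 CPM in severe TPD latex, against 3.51, 2.5 and 0.488 CPM in control latex, with severe TPD library 1 close to the highest control library. It was called higher at a log2 fold change of 2.19 ± 0.59 SE (adjusted p = 0.0430). This call was lost without severe TPD library 2 (adjusted p = 0.0615), severe TPD library 3 (0.126), control library 2 (0.121) or control library 3 (0.0771).

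Per kilobase of contig, phospholipase A1 averaged 208 CPM in severe TPD latex and 15.9 CPM in control latex. Allene oxide synthase CL1Contig911 averaged 40.1 and 1.02 CPM per kilobase in the same groups, and lipoxygenase 6 averaged 12.5 and 0.836 CPM per kilobase. The order of the 3 enzymes at the severe TPD level was thus phospholipase, allene oxide synthase, lipoxygenase. In the trees with slight TPD under ethephon, set against the same control libraries, the log2 fold changes were 3.94 for the phospholipase, 3.85 for lipoxygenase 6, 5.76 for CL1Contig911 and 2.93 for the cyclase. The first 3 of these contigs had been selected for their direction in that very comparison.

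Transcription factors linked to jasmonate and defence were also higher. A MYC4-like factor (CL10144Contig1), of the bHLH group that activates jasmonate-responsive genes in Arabidopsis, stood at 409, 380 and 324 CPM in severe TPD latex, against 53.2, 36.9 and 11.4 CPM in control latex. Its log2 fold change was 3.45 ± 0.48 SE (adjusted p = 0.00369), and it is a member of the selected set as well. A second bHLH factor, named bHLH147-like (CL1Contig10832), was the factor with the most read pairs in the selected set, at 723, 598 and 627 CPM against 69.2, 54.5 and 35.4 CPM in the control (3.61 ± 0.29, adjusted p = 0.000529). Both remained called without any single tree.

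The tight replicates of the WRKY40-like factor (CL8780Contig3) gave one of the smallest standard errors of the set. It had 101, 100 and 95.1 CPM in severe TPD latex, against 7.14, 8.01 and 9.22 CPM in control latex (3.60 ± 0.21, adjusted p = 0.000113). Scaled together with the libraries of slight TPD under ethephon, it averaged 205 CPM in slight and 102 CPM in severe TPD latex. Between these groups, 40 contigs were called higher and 0 lower in severe TPD latex. WRKY40 represses and tunes pathogen responses in Arabidopsis. The PTI6-like factor (CL1Contig16711), named for a tomato activator of pathogenesis-related genes, had 69.3, 124 and 102 CPM against 7.14, 8.40 and 1.37 CPM (4.13 ± 0.56, adjusted p = 0.00327). ERF112-like CL8139Contig1, of the ethylene-responsive factor family, had 137, 48.1 and 64.8 CPM against 11.6, 10.5 and 7.22 CPM (3.10 ± 0.40, adjusted p = 0.00272).

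In all, 16 of the 22 transcription factor contigs of the selected set were tested and 16 were called higher, with log2 fold changes of 2.16 to 5.16. This is the direction of their selection, beside 6.60% of all contigs tested. Zinc finger factors named KNUCKLES-like (CL1Contig1432, 4.61) and ZAT5-like (CL15911Contig1, 4.38), WRKY22-like CL18582Contig1 (3.99) and the auxin-induced protein AUX22-like CL15202Contig1 (4.57) were among them. The ZAT5-like, WRKY22-like and AUX22-like contigs entered the test only through the severe TPD libraries and so had to differ. The smallest change of the 16 was that of HY5-like CL4294Contig4, named for a light-signalling factor. Its call at 2.16 (adjusted p = 0.0203) was lost without severe TPD library 1 (0.0623), control library 1 (0.0667) or control library 2 (0.0913).

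Protein kinases of the WNK4-like group formed a compact block. WNK kinases are serine/threonine kinases that lack the usual catalytic lysine. All 4 contigs of the selected set were tested and called higher, the direction of their selection, with log2 fold changes of 4.11 to 4.98. Over all contigs tested, 6.60% were higher. CL1Contig16293, the one with the most read pairs, had 120, 106 and 85.4 CPM in severe TPD latex, against 5.65, 4.23 and 3.90 CPM in control latex (4.49 ± 0.25, adjusted p = 0.000113). CL1Contig5861 had 84.7, 103 and 61.2 CPM against 3.81, 3.11 and 2.34 CPM (4.74 ± 0.30, adjusted p = 0.000203). CL1Contig6749 had 52.4, 40.2 and 38.7 CPM against 3.33, 2.17 and 2.05 CPM (4.11 ± 0.28). CL1Contig8503 was led by severe TPD library 2, with 22.9, 56.1 and 19.5 CPM against 1.05, 1.45 and 0.634 CPM (4.98 ± 0.50). On the scale shared with slight TPD under ethephon, CL1Contig16293 averaged 164 CPM in slight and 107 CPM in severe TPD latex. In the same order CL1Contig5861 averaged 123 and 85.2 CPM, CL1Contig6749 76.5 and 45.0 CPM, and CL1Contig8503 33.0 and 33.7 CPM. These 4 contigs may derive from fewer genes, since reads that matched several contigs were removed before counting.

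Other signalling contigs of the set moved the same way. A MAPKKK-A-like kinase (CL1Contig5001), from the top tier of mitogen-activated kinase cascades, had 78.3, 55.3 and 55.9 CPM in severe TPD latex, against 6.14, 3.95 and 1.02 CPM in control latex (4.09 ± 0.51, adjusted p = 0.00256). A protein phosphatase 2C 10-like contig (CL1Contig4306), of a family that removes phosphate from such kinases, had 73.4, 78.9 and 59.5 CPM against 6.35, 8.56 and 7.07 CPM (3.27 ± 0.22, adjusted p = 0.000275). Of 17 such kinases and phosphatases, 11 were tested and 11 were called higher, the direction of their selection, beside 6.60% of all contigs tested. Members such as CL21621Contig1 and CL32567Contig1 entered the test only through the severe TPD libraries. The protein kinase 2A-like CL5585Contig3 had one of the weaker calls (2.24, adjusted p = 0.0159), lost without severe TPD library 1 (0.0507), severe TPD library 3 (0.0513), control library 2 (0.0625) or control library 3 (0.0526). Among ubiquitin ligases, which mark proteins for degradation, SHPRH-like CL6558Contig2 had 198, 226 and 201 CPM against 18.9, 15.7 and 16.3 CPM (3.61 ± 0.20, adjusted p = 0.000113). Its mean on the scale shared with slight TPD under ethephon was 435 CPM in slight and 214 CPM in severe TPD latex.

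**Figure D2:**
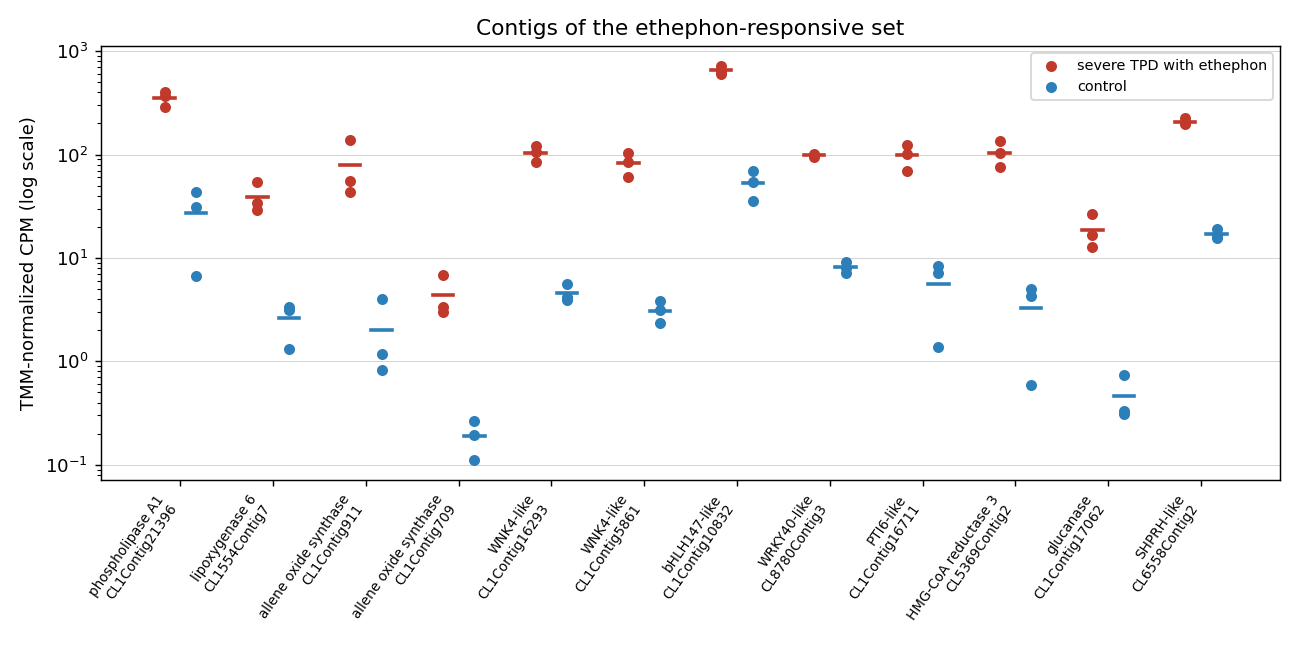
TMM-normalized CPM (y axis, log scale) of 12 contigs of the set that the study selected as over-expressed with ethephon, with 1 point per tree and a bar at the group mean. Severe TPD trees with ethephon (red) lie above the control trees (blue) for all 12. Control tree 3 has the lowest value for each contig except allene oxide synthase CL1Contig709, WRKY40-like, glucanase and SHPRH-like.

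The isoprenoid contig of the set was 3-hydroxy-3-methylglutaryl-coenzyme A reductase 3 (CL5369Contig2), the enzyme that makes mevalonate. It stood at 103, 76.2 and 134 CPM in severe TPD latex, against 4.25, 5.01 and 0.585 CPM in control latex (4.99 ± 0.61, adjusted p = 0.00230). Per kilobase this was 46.6 CPM in severe TPD latex and 1.46 CPM in control latex. Other contigs of isoprenoid and sterol synthesis, named outside the selected set, did not share this increase. All 3 tested had lower values with no overlap between groups, as did 16.6% of all contigs tested. Among the 3, CL1037Contig1 and CL1037Contig4 are squalene epoxidase contigs of 1 cluster, which may derive from 1 gene. In the edgeR quasi-likelihood test 0 of the 3 were called. At an unadjusted p below 0.05 in that test, 3 were lower, as were 3835 of all 29900 contigs tested. Of the 3, the edgeR exact test called 1 lower and DESeq2 called 0. The terpene synthase CL10436Contig1 had 0.749, 7.94 and 3.76 CPM in severe TPD latex, against 9.99, 9.06 and 22.1 CPM in control latex (log2 fold change -1.73 ± 0.66 SE, adjusted p = 0.120). Squalene epoxidase (CL1037Contig4), an enzyme of sterol synthesis, had 18.0, 14.3 and 12.2 CPM against 20.1, 21.5 and 22.2 CPM (-0.52 ± 0.21, adjusted p = 0.146).

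Outside the selected set, 1 of 11 oxidation-reduction contigs tested was called higher and 0 lower, beside 6.60% and 4.91% of all contigs tested. The called one, a reticuline oxidase contig (CL10740Contig1), changed by 1.89 ± 0.48 (adjusted p = 0.0346 in edgeR). Its call was lost without severe TPD library 1 (0.102) or control library 1 (0.103), 2 (0.086) or 3 (0.12). Tocopherol O-methyltransferase (CL1409Contig4), an enzyme of vitamin E synthesis from the set, had 24.0, 7.31 and 6.59 CPM in severe TPD latex, against 0.877, 1.39 and 0.195 CPM in control latex (3.95 ± 0.69, adjusted p = 0.00906). Polyamine oxidase 1-like (CL6443Contig3), which releases hydrogen peroxide, had 32.5, 16.7 and 23.9 CPM against 4.03, 1.5 and 0.683 CPM (3.54 ± 0.55, adjusted p = 0.00541). In the quasi-likelihood test, 4692 of all 29900 contigs tested were higher and 3835 lower at an unadjusted p below 0.05. Of 5 antioxidant enzyme contigs tested from the unselected annotation, 0 passed the quasi-likelihood test (3 higher and 0 lower at an unadjusted p below 0.05, 0 by the exact test and 0 by DESeq2). The most abundant, GDP-L-galactose phosphorylase (CL1032Contig2) of vitamin C synthesis, had 131, 153 and 91.2 CPM against 93.1, 80.1 and 59.4 CPM (0.69 ± 0.25, adjusted p = 0.107).

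Contigs for defence and cell wall proteins of the selected set had higher levels, the direction for which they had been selected. A basic glucan endo-1,3-beta-glucosidase (CL1Contig17062), which degrades a fungal wall polymer, had 12.8, 26.5 and 16.8 CPM in severe TPD latex, against 0.307, 0.334 and 0.732 CPM in control latex (5.33 ± 0.44, adjusted p = 0.000529). On the scale shared with slight TPD under ethephon, this contig averaged 6.65 CPM in slight and 19.2 CPM in severe TPD latex. A contig like salicylic acid-binding protein 2 (CL10377Contig1), which releases salicylic acid from its methyl ester in tobacco, had 49.2, 25.7 and 42.8 CPM against 5.08, 4.67 and 3.76 CPM (3.12 ± 0.29, adjusted p = 0.000825). Expansin-A4-like CL20361Contig1, of a family that loosens cell walls, had 16.1, 7.46 and 9.48 CPM against 0.570, 0.389 and 0.439 CPM (4.54 ± 0.41, adjusted p = 0.000789). The glucosidase and the expansin entered the test only through the severe TPD libraries. Of the 6 carbohydrate and cell wall enzymes tested in the unselected annotation, 0 were called. Of the 5 defence contigs tested there, 0 were higher and 1 was lower, with a median log2 fold change of -0.74. Over all contigs tested, 6.60% were higher and 4.91% lower, and both lists are too small to be set against these shares. The lower defence contig, placed there by its Gene Ontology terms (CL10759Contig1), had 15.4, 8.83 and 11.7 CPM in severe TPD latex, against 32.7, 31.4 and 53.9 CPM in control latex (-1.71 ± 0.29, adjusted p = 0.00814).

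The annotation used for contigs not selected on expression covered 1984 contigs, the first by contig name. Of these, 719 were tested, and 8.48% were higher and 5.42% lower, beside 6.60% and 4.91% of all contigs tested. Also members of the set selected with ethephon were 7 of them, 7 of which were higher, and without these 7 the shares were 7.58% and 5.48%. Among the 220 with the name of a plant protein, 20 were higher (9.09%) and 10 lower (4.55%), together 13.6%, and 4 of the 20 were members of the selected set.

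Membrane transporters of this annotation were called in the lower direction where they were called. Of 60 contigs, 16 were tested, 0 were called higher and 4 were called lower, with a median log2 fold change of -0.23 over the 16. Over all contigs tested, 6.60% were higher and 4.91% lower. The exact test and DESeq2 likewise called 0 higher. At an unadjusted p below 0.05 in the quasi-likelihood test 0 were higher, beside 4692 of all 29900 contigs tested. The TRANSPARENT TESTA 12-like contig (CL10827Contig3), named for a carrier that loads flavonoids into the vacuole in Arabidopsis, had 1.67, 1.16 and 0.872 CPM in severe TPD latex, against 7.14, 4.34 and 6.98 CPM in control latex (-2.31 ± 0.37, adjusted p = 0.00628). Of 3 contigs tested of cluster CL1080, which may derive from 1 gene, 2 were called. They are named for a multidrug resistance protein and an ABC transporter, a family that moves compounds across membranes with ATP. The multidrug resistance contig CL1080Contig7 had 1.59, 0.946 and 0.926 CPM against 4.91, 6.06 and 5.07 CPM (-2.20 ± 0.34, adjusted p = 0.00561). The ABC transporter contig CL1080Contig4 had 2.55, 3.10 and 2.29 CPM against 8.68, 8.45 and 7.17 CPM (-1.61 ± 0.27, adjusted p = 0.00776). CL10827Contig3, CL1080Contig7 and CL1080Contig4 remained lower without any single tree. The other ABC transporter contig tested, CL1080Contig2, averaged 1.06 ± 0.12 CPM against 1.40 ± 0.012 CPM (SD, n = 3 each) and was not called (-0.41 ± 0.35, adjusted p = 0.476 in edgeR). A vacuolar amino acid transporter (CL10301Contig1) had 5.37, 0.526 and 1.58 CPM against 25.5, 11.3 and 8.59 CPM (-2.58 ± 0.70, adjusted p = 0.0429), and its call was lost without severe TPD library 3 (0.136), control library 1 (0.128), control library 2 (0.086) or control library 3 (0.0776).

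Of 60 transcription factor contigs in this annotation, 19 were tested and 2 were called, both higher, beside 6.60% of all contigs. These were the MYC4-like factor, a member of the selected set, and the abundant homeobox protein CL1071Contig3, a DNA-binding factor, with 886, 884 and 937 CPM in severe TPD latex, against 484, 294 and 270 CPM in control latex (1.37 ± 0.26, adjusted p = 0.0119). Without control library 2 the call for CL1071Contig3 was lost (adjusted p = 0.0671). Outside the list, the zinc finger contig CL10739Contig1, again a member of the selected set, was nearly absent from the control libraries. It had 3.30, 3.99 and 4.69 CPM in severe TPD latex, against 0.0877, 0.222 and 0.244 CPM in control latex (4.41 ± 0.46, adjusted p = 0.00154). It entered the test only through the severe TPD libraries. The trees with slight TPD under ethephon had similar levels, at 3.66, 4.01 and 3.94 CPM. For severe over slight TPD its log2 fold change was 0.12 ± 0.27 SE (adjusted p = 0.898 in edgeR).

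Of 61 protein kinase contigs, 18 were tested, 3 were called higher and 1 lower, beside 6.60% and 4.91% of all contigs. A receptor-like kinase (CL107Contig12), which the study had also selected as over-expressed with ethephon, had 1.10, 1.05 and 1.14 CPM in severe TPD latex, against 0.131, 0 and 0 CPM in control latex, so it entered only through the severe TPD libraries (4.34 ± 0.78, adjusted p = 0.0102). A cyclin-dependent kinase (CL1027Contig7), of the family that drives the cell cycle and transcription, had 12.8, 13.9 and 10.5 CPM against 5.83, 5.62 and 6.54 CPM (1.05 ± 0.23, adjusted p = 0.0210). That call was lost without severe TPD library 1 (0.0593), control library 1 (0.0605), control library 2 (0.101) or control library 3 (0.0646).

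Phosphotransfer proteins of cytokinin signalling had lower values without a call. All 4 contigs tested of the two-component list had negative values and 0 were called by the quasi-likelihood test. Only CL104Contig15 and CL104Contig16 of the 4 are named as phosphotransfer proteins, and they share 1 cluster. Of the 4, 2 had an unadjusted p below 0.05 in that test, beside 3835 of all 29900 contigs tested that were lower at that level. The exact test and DESeq2 each called 1 of the 4 lower, beside 7.09% and 7.93% of all contigs. CL104Contig15, a histidine-containing phosphotransfer protein that relays the cytokinin signal, had 3.13, 8.57 and 3.43 CPM in severe TPD latex, against 11.3, 22.5 and 10.3 CPM in control latex (-1.54 ± 0.45, adjusted p = 0.0531, and 0.00585 in the exact test). CL104Contig16, of the same cluster, had 54.4, 94.1 and 57.9 CPM against 115, 122 and 87.0 CPM (-0.65 ± 0.26, adjusted p = 0.130).

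Of 4 ribosomal protein contigs of this annotation tested, 2 were called higher, and of 9 chaperones 1, beside 6.60% of all contigs. Phosphofructokinase (CL10416Contig1), a control point of glycolysis, had 31.8, 31.3 and 19.0 CPM in severe TPD latex, against 8.11, 6.45 and 6.20 CPM in control latex (1.98 ± 0.26, adjusted p = 0.00302). The mitochondrial ribosomal protein L47 (CL10340Contig1) had 33.7, 64.9 and 34.1 CPM against 15.4, 12.7 and 9.42 CPM (1.82 ± 0.31, adjusted p = 0.00832). Both remained called without any single tree. The grpE-like co-chaperone CL1066Contig1, which helps Hsp70 proteins release their client, had 11, 14.6 and 14.8 CPM against 4.56, 5.78 and 5.85 CPM (1.32 ± 0.24, adjusted p = 0.0113), and without control library 2 its adjusted p was 0.0532.

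**Figure D3:**
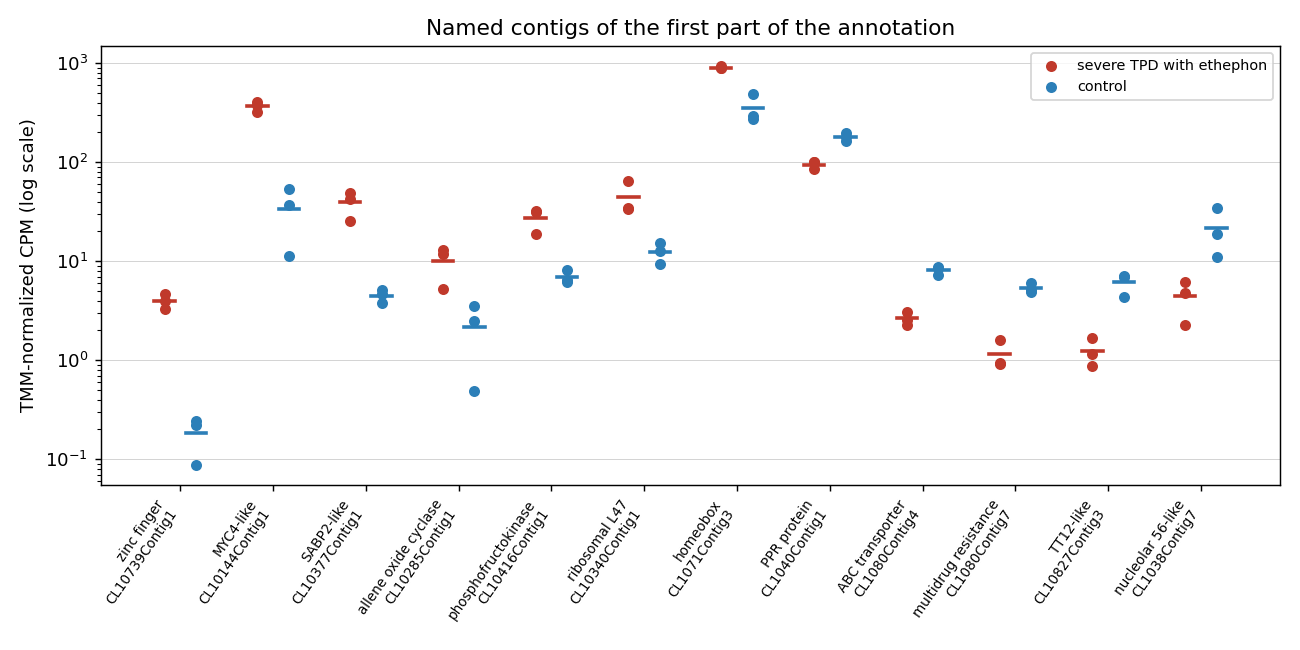
TMM-normalized CPM (y axis, log scale) of 12 called contigs of the annotation ordered by contig name, with 1 point per tree and a bar at the group mean. Severe TPD trees with ethephon (red) lie above the control trees (blue) for the first 7 contigs and below them for the last 5, and allene oxide cyclase has the smallest gap. The zinc finger, MYC4-like and SABP2-like contigs also belong to the set selected with ethephon.

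A nucleolar and a pentatricopeptide repeat protein were among the contigs lower in severe TPD latex. The nucleolar protein 56-like CL1038Contig7, named for a factor of ribosome assembly, had 2.29, 6.20 and 4.74 CPM in severe TPD latex, against 11.1, 19.0 and 34.2 CPM in control latex (-2.28 ± 0.46, adjusted p = 0.0154). Its call was lost without severe TPD library 3 (0.0568) or control library 3 (0.0622). A pentatricopeptide repeat protein (CL1040Contig1), of a family that binds organelle RNA, had 84.6, 100 and 99.3 CPM against 195, 164 and 179 CPM (-0.92 ± 0.19, adjusted p = 0.0157), and without severe TPD library 3 its adjusted p was 0.0607. It was the 1 call among 16 pentatricopeptide repeat contigs tested, whose median log2 fold change was 0.30.

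Over the 18 lists drawn from this annotation, 156 contigs were tested, 13 were higher (8.3%) and 10 lower (6.4%), against 6.60% and 4.91% of all contigs tested, and their median log2 fold change was -0.06. Of the 13 higher, 2 were members of the selected set, and without them 11 of 154 were higher (7.14%). Without control library 2 there were 3 higher and 5 lower, and without severe TPD library 3 there were 6 and 4. Without control library 3 there were 5 and 5, while without severe TPD library 1 and without control library 1 the higher contigs numbered 7 and 8. Without severe TPD library 2 there were 10 higher and 12 lower. The bars of tested contigs by list show each count. Ubiquitin and proteolysis had 19 tested with 1 higher and 2 lower, and oxidation-reduction enzymes had 11 tested with 1 higher. Carbohydrate and cell wall enzymes (6 tested), fatty acid synthesis (7) and vesicle traffic (7) had 0 calls in the quasi-likelihood test. In those 3 lists no contig was higher at an unadjusted p below 0.05, while 3 of the carbohydrate list were lower at that level. Of all 29900 contigs tested, 4692 were higher and 3835 lower at that level. DESeq2 called 2 of the carbohydrate list lower, and the exact test 0.

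**Figure D4:**
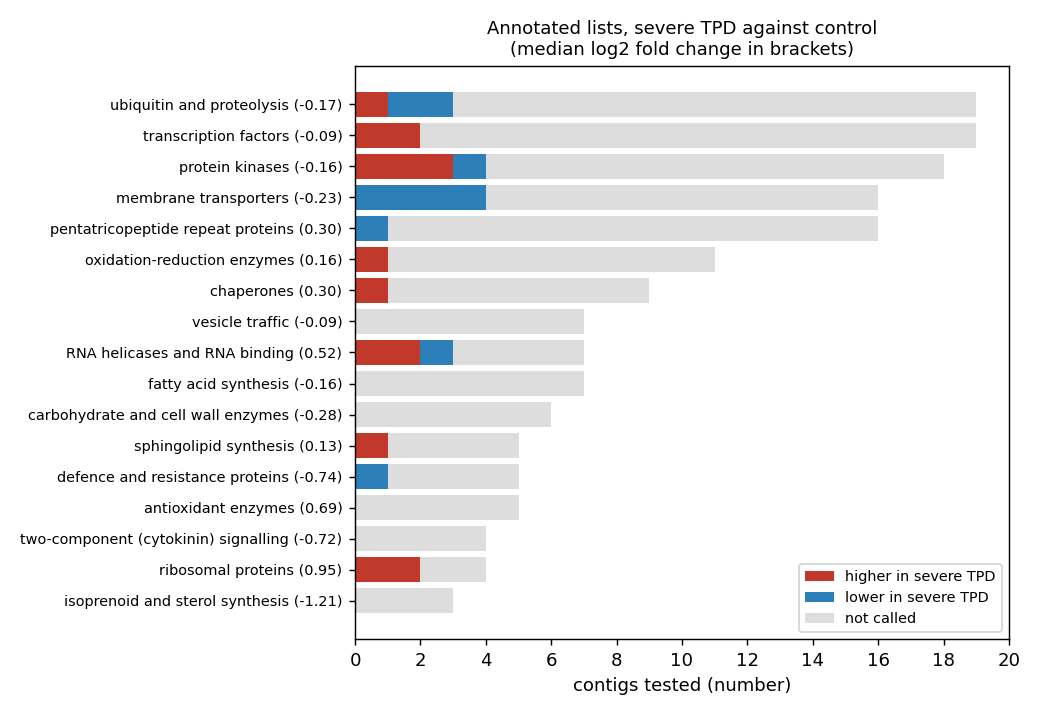
Number of contigs tested (x axis) in each of 17 lists of the annotation not selected on expression, split into those higher (red) and lower (blue) in severe TPD latex and those not called (grey), with the median log2 fold change in brackets. Membrane transporters have 4 lower and 0 higher of 16 tested, and transcription factors 2 higher and 0 lower of 19.

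The called contigs with the most read pairs carried no name in the annotation used here. CL274Contig2 had 2191, 2740 and 3134 CPM in severe TPD latex, against 1070, 1121 and 918 CPM in control latex, a 2.59-fold increase (log2 fold change 1.37 ± 0.23 SE, adjusted p = 0.00758). CL1Contig631, with the most read pairs, had 3191, 4216 and 3711 CPM against 2386, 1289 and 1469 CPM (1.11 ± 0.28, adjusted p = 0.0340), and its call was lost without severe TPD library 1 (0.0573), 2 (0.0694) or 3 (0.0911) and without control library 2 (0.150) or 3 (0.117). In the other direction, CL26Contig8 had 971, 722 and 988 CPM against 2135, 2269 and 2976 CPM (-1.46 ± 0.24, adjusted p = 0.00729). CL621Contig4 had 585, 811 and 921 CPM against 2059, 1553 and 1966 CPM (-1.27 ± 0.25, adjusted p = 0.0132). CL274Contig2, CL26Contig8 and CL621Contig4 remained called without any single tree.

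Some contigs were found in only one of the groups. Of the contigs tested, 7 had no pair in all 3 control libraries and were called higher, and 0 had no pair in all 3 severe TPD libraries. These 7 entered the test only through the severe TPD libraries and so had to differ. Of them, 4 belonged to the set selected with ethephon. Set against a floor of 3 pairs over the control group (0.0489 CPM), CL18111Contig1, at 8.68, 4.78 and 21.7 CPM in severe TPD latex, was at least 239-fold higher. CL1413Contig1, at 11.9, 12.6 and 8.01 CPM, was at least 221-fold higher. A kinesin contig of that cluster, CL1413Contig4, named for motor proteins that bind chromosomes, had 15.2, 6.89 and 7.30 CPM against 0.0877, 0.278 and 0.0976 CPM (5.98 ± 0.55, adjusted p = 0.000825). It too entered the test only through the severe TPD libraries. CL18185Contig1 was at least 110-fold higher, at 8.63, 2.89 and 4.69 CPM. Among the 7 the zinc finger protein CL12239Contig1 carried a name, at 1.81, 3.73 and 2.34 CPM or at least 53.7-fold higher. In the trees with slight TPD under ethephon, CL1413Contig1 stood at 22.4, 19.1 and 19.4 CPM and CL12239Contig1 at 3.42, 3.65 and 3.46 CPM. CL17130Contig1 and CL22599Contig1 had no pair in any of those 3 libraries either.

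The largest decreases were also in contigs without a name. CL6296Contig1 had 1.06, 2.52 and 2.40 CPM in severe TPD latex, against 12.5, 35.3 and 108 CPM in control latex, a group that itself varied widely (-4.71 ± 0.75, adjusted p = 0.00605). CL700Contig1 was steadier, at 0.352, 1.84 and 0.926 CPM against 26.1, 26.9 and 26.6 CPM (-4.69 ± 0.46, adjusted p = 0.00116). CL7293Contig1 had 0.308, 0.526 and 0.218 CPM against 4.95, 12.9 and 8.59 CPM (-4.63 ± 0.49, adjusted p = 0.00161), and it entered the test only through the control libraries.

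Contigs of 1 cluster, which may be copies or splice forms of a gene, were also compared. Of 1991 clusters with at least 3 contigs tested, the large cluster CL1 left out, 537 held any call. At least 2 contigs were higher in 91 of them and at least 2 were lower in 90, while 21 held calls in both directions. Every contig tested was higher in 7 clusters and lower in 12. Beside them, 6.60% of all contigs tested were higher and 4.91% lower. Whether the cluster counts exceed what these shares would give was not tested.

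The same kind of comparison in clone PB217 used 3 libraries labelled TPD and 3 labelled healthy, whose titles both carry the number 36 and differ, as in PB 260, in the numbers 12 and 0, and shares no library with PB 260. Their harvest days were also 27 March for TPD and 25 March for healthy trees. The PB217 titles carry T and D1 where those of PB 260 carry S and D2, so clone and what these letters mark cannot be told apart. There, 1314 contigs were higher (4.51% of 29124 tested) and 1290 lower (4.43%). Of the contigs tested in both clones, 1857 were higher in PB 260, and 643 of these were also higher in PB217, which is 34.6% of the PB 260 list and 53.5% of the 1201 higher in PB217. For the lower contigs the overlap was 471, or 34.7% of the 1357 in PB 260 and 38.9% of the 1212 in PB217. Over all 27298 contigs tested in both, 4.40% were called higher and 4.44% lower in PB217. Calls in opposite directions numbered 6 for contigs higher in PB 260 and 0 for contigs lower in PB 260.

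**Figure D5:**
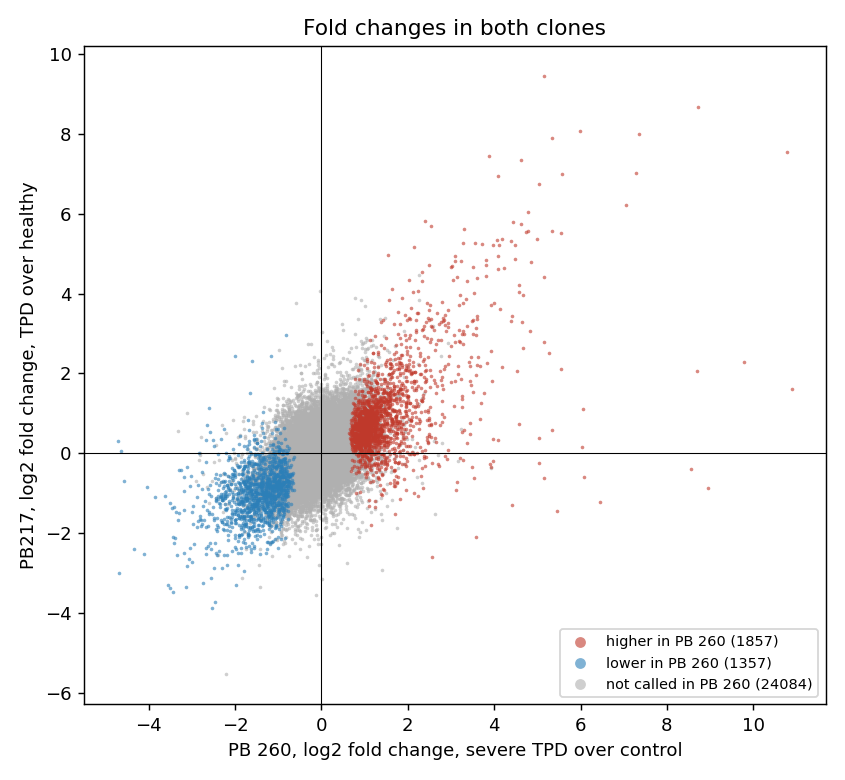
Log2 fold change of TPD over healthy trees in PB217 (y axis) against that of severe TPD over control in PB 260 (x axis), 1 point per contig tested in both clones. Red points, higher in PB 260, have a median of 0.78 in PB217, and blue points, lower in PB 260, a median of -0.96.

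The median PB217 log2 fold change was 0.78 for the contigs higher in PB 260 and -0.96 for those lower in PB 260, against 0.06 for all contigs tested in both. Among named contigs, MYC4-like CL10144Contig1 changed by 1.81 in PB217, WNK4-like CL1Contig16293 by 5.23, WRKY40-like CL8780Contig3 by 4.40, phospholipase A1 CL1Contig21396 by 5.25 and TRANSPARENT TESTA 12-like CL10827Contig3 by -1.72, each called in PB217 in its PB 260 direction. Allene oxide synthase CL1Contig911 changed by 2.52 there and was not called (adjusted p = 0.0630).

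The difference between the clones was tested directly, as the interaction of clone and condition, in 32626 contigs. It was positive in 47 contigs (0.144%), meaning a higher log2 fold change in PB 260, and negative in 5 (0.0153%). At an unadjusted p below 0.05 the counts were 2140 and 1691, and DESeq2 called 378 (1.16%) and 122 (0.374%). Of the contigs of this interaction, 32 positive ones were also called higher in PB 260 and 5 negative ones were called lower. Lipoxygenase 6 (CL1554Contig7) was the jasmonate enzyme among them. It averaged 2.55 ± 0.79 CPM in PB217 trees labelled TPD and 3.10 ± 0.66 CPM in those labelled healthy (SD, n = 3 each), with a log2 fold change of -0.28, and the PB 260 response exceeded it by 4.19 ± 0.52 (adjusted p = 0.00950).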

How the data were processed

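RNA from latex was sequenced as paired-end reads (stranded TruSeq libraries), 1 library per tree. The values are deposited counts. The authors trimmed the reads, removed ribosomal matches and aligned the rest with Bowtie2 to a PB 260 transcriptome. Their own script counted pairs with both mates on 1 contig and dropped reads with several matches, so near-identical contigs are uncertain. The submitters' processing notes also name TopHat2. Between 72.4% and 74.9% of the pairs of the 6 libraries compared were counted. The floors cover counting error only, while the SE also takes in the spread between trees.

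Counts were normalized by TMM and tested with the edgeR 4.0.16 quasi-likelihood test in R 4.3.3 (prior count 0.125) on the 6 libraries, with no covariate and Benjamini-Hochberg adjustment over all contigs tested. Fold changes are severe TPD over control on the log2 scale. SE is the absolute log2 fold change divided by the root of F. PB217 month 1 libraries were not used here. The PB217 conditions come from sample titles. The methods were tested on simulated data. DESeq2 1.42.0 served as an alternative, beside the edgeR exact test, DESeq2 size factors, no count filter, a fit of all 9 PB 260 libraries, a replicate block and leaving out each library.

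Contig names come from 2 parts of the study's annotation: the first contigs by name, not selected on expression, and contigs the study selected as over-expressed with ethephon. Lists were made from these names and Gene Ontology terms. Named contigs were the 12 largest called changes in each direction in each part, free of overlap and with a plant protein name, the 5 most abundant called contigs and 5 largest changes in each direction, the 3 most abundant members of each list, markers, and contigs with no pair in a group. Other members of lists were named after their values were seen. Members and lists were chosen with earlier results of these data known. No p is adjusted over a list alone. Contigs could not be matched to reference sequences, and none is printed.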

Additional observations from a re-analysis of the deposited data

Results flagged for a closer look

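In the test of the difference between the clones, 32 positive and 5 negative contigs were also called in PB 260 in that direction, and the 12 of them that are named here were chosen in part after their values were seen. Differences below are the PB 260 log2 fold change minus that of PB217, and the PB217 levels are means of 3 trees each.

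The lipoxygenase 6 contig CL1554Contig7 differed by 4.19. A lectin receptor kinase contig, CL32567Contig1, differed by 6.47. It had 5.86, 4.20 and 2.72 CPM in severe TPD latex, against 0.175, 0.167 and 0.0488 CPM in control latex, and averaged 0.0758 CPM in PB217 TPD trees and 0.225 CPM in healthy ones.

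In another 5 contigs the PB 260 control was at or near 0 while PB217 carried the transcript in both conditions. CL17130Contig1 differed by 9.70 and averaged 8.56 CPM in PB217 TPD trees and 15.6 CPM in healthy ones. CL18111Contig1 differed by 9.19 and averaged 15.4 and 5.04 CPM in these PB217 groups. CL22599Contig1 differed by 8.84 (2.38 and 3.12 CPM), CL12693Contig1 by 6.67 (40.1 and 60.5 CPM) and CL1Contig12741 by 4.26 (17 and 21.7 CPM). Differences for the contigs with no control pair depend on the prior count.

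The other 5 were lower in severe TPD than in control PB 260 latex. CL2527Contig1 differed by -5.23, CL21266Contig1 by -5.07, CL10400Contig1 by -4.53, CL4448Contig2 by -3.86 and CL7192Contig2 by -1.85. The first 3 averaged 0.222, 0.332 and 0.842 CPM in PB217 TPD trees, and 0.129, 0.0414 and 0.281 CPM in healthy ones. All of these PB217 means lay below 1 CPM, so the PB217 side of these 3 differences rests on few read pairs. CL7192Contig2 averaged 10.6 CPM in PB217 TPD trees and 6.10 CPM in healthy ones, and its PB 260 call (adjusted p = 0.0385) was lost without severe TPD library 1 (0.0751) or 3 (0.134) and without control library 1 (0.0899), 2 (0.129) or 3 (0.0915), and with no count filter (0.0532).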

How the results depend on the processing

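None of the contigs called in PB 260 reversed its direction under any alternative. A reversal had little room to occur, since the groups did not overlap for 3429 of the 3439 called. Beside 1972 higher and 1467 lower contigs, DESeq2 size factors gave 1830 and 1553, the DESeq2 test 2646 and 2370, the edgeR exact test 2616 and 2120, no count filter 2939 and 2509 (65685 contigs tested), and all 9 PB 260 libraries in one fit 2694 and 2435. Leaving out 1 library gave 560 to 1515 higher and 441 to 1612 lower, and 135 to 226 of the called contigs then failed the filter. With the contigs of the full test kept, an alternative chosen after seeing the data, 1739 were higher and 1636 lower without severe TPD library 2, the library that stood apart. The replicate numbers marked no shared tree. The deviations of same-numbered libraries correlated at -0.027, 0.212 and 0.063, and the replicate block gave 1756 higher and 1415 lower, with CL10285Contig1 (adjusted p = 0.0667) and CL7192Contig2 (0.0544) among those no longer called.

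In PB217 the exact test called 2310 higher and 2355 lower, against 1314 and 1290, and the DESeq2 test of the clone difference called 378 positive and 122 negative, against 47 and 5. The lists of the annotation ordered by contig name held 13 higher and 10 lower contigs, 8 higher with the replicate block, and 3 to 10 higher and 4 to 12 lower without 1 library. The lists of the selected set held 51 higher, and 25 to 50 without 1 library, where 24 contigs no longer passed the filter in some fits. For 114 named called contigs, 1198 of 1350 values kept the call and 152 lost it, 17 of them outside the leave-one-out fits. For markers that were not called the sign turned. Without 1 library the log2 fold change of CL10238Contig2 was -0.73 to 1.22, that of CL1Contig21026 -0.90 to 0.87 and that of CL1Contig7138 -0.12 to 0.21. The replicate block gave 0.25 for the first and 0.06 for CL1Contig21026, and leaving out severe TPD library 2 in the full set of contigs gave 0.16 for the first. The causes were not tested.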
